A study of Drosophila melanogaster with 6 samples.

Results

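Genes of lipid storage and lipid synthesis were compared between whole adult flies of the Drosophila melanogaster strains Canton-S and D18, and 10 of them are described here: SREBP, ACC, FASN1, Lpin, mdy, Lsd-2, bmm, mag, apolpp and Mtp. A gene was taken from the probe sets that the annotation of the array ties to it alone, and each of the 10 had 1 such probe set. They are 10 of the 18769 probe sets tested and 10 of the 11982 genes that at least 1 probe set names alone. Canton-S is a wild type laboratory strain from North America and D18 a wild type laboratory strain from the Moscow region of Russia. Both are inbred stocks kept at 25 °C on cornmeal-molasses medium, and neither received a treatment. For each strain, 3 GeneChip Drosophila Genome 2.0 arrays were hybridized with biotin-labelled RNA of 3-day-old adults, with 250 ng of total RNA per array and 1 array per biological repeat. The values are RMA signals, in which the scans are corrected for background, normalized together and summarised as 1 log2 value per probe set. The level of a probe set is comparable between arrays and not between probe sets, so genes are compared below by their differences alone.

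Fatty acids in flies are made in the cytosol from acetyl-CoA, which acetyl-CoA carboxylase turns into malonyl-CoA and fatty acid synthase extends. They are then joined to glycerol and kept as triglyceride in lipid droplets, chiefly of the fat body, the insect counterpart of liver and adipose tissue. Lipases release the fatty acids again in fasting, and lipoproteins built on apolipophorin carry lipid from the gut and the fat body to other organs, the growing egg among them. The transcription factor SREBP is activated by cleavage at the Golgi and drives genes of fatty acid synthesis, and in flies this cleavage responds to phosphatidylethanolamine and not to sterols.

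The 6 arrays were of 2 kinds, which crossed the strains. Canton-S replicate 3 and D18 replicate 2 carried the transcripts of male tissues and lacked those of eggs, and they are called the testis-rich pair here. Of 15 measured genes of the male accessory gland, 14 were over 2-fold higher on the testis-rich pair without overlap, with a summed signal of 34299 to 49242 on the pair and of 99.3 to 106 on the other 4 arrays. Of 22 testis genes 19 were higher on the pair, with sums of 28308 to 33080 against 326 to 525. In contrast, all 17 genes of yolk and eggshell were lower on the pair, with sums of 314 to 343 against 51097 to 103789, and so were 13 of 16 ovary genes. The methods of the study give flies of both sexes, and these levels go against pools of that kind on each array. Each strain had 1 array of the pair, so the kind of array widened the spread within both strains and left the mean difference between the strains balanced. Every comparison below is given by strain and by kind of array. The other 4 arrays are called egg-rich.

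Between the strains, none of the 10 genes passed the thresholds of the study, an unadjusted p under 0.01 with more than a 2-fold change. Of all probe sets, 1.27% passed them. None reached an adjusted p under 0.05 in limma, as 0.0373% of all probe sets did, and 1 of the 10 (SREBP) had an unadjusted p under 0.05, against 4.2% of all probe sets. In a linear model without moderation 2 of the 10 (SREBP and ACC) did, against 4.69% of all probe sets. None passed with a block for the kind of array, without the pair or with a replicate block, where 2.38%, 2.74% and 0.49% of all probe sets passed. At an unadjusted p under 0.05 were 2, 2 and 0 of the 10 genes in these fits, and 11.9%, 10.9% and 1.99% of all probe sets. The mean of Canton-S exceeded that of D18 for 7 genes and was the lower for 3 (Lsd-2, mdy and apolpp). The median difference, Canton-S minus D18, was 0.42 on the log2 scale for the 10 genes and -0.05 for all probe sets. The arrays of the strains did not overlap for SREBP and ACC, both higher in Canton-S, which is 2 of 10 genes where 8.01% of all probe sets showed no overlap in either direction and 5.62% in this one. In the plot of signals by array the remaining 8 genes have arrays of one strain among those of the other.

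**Figure D1:**
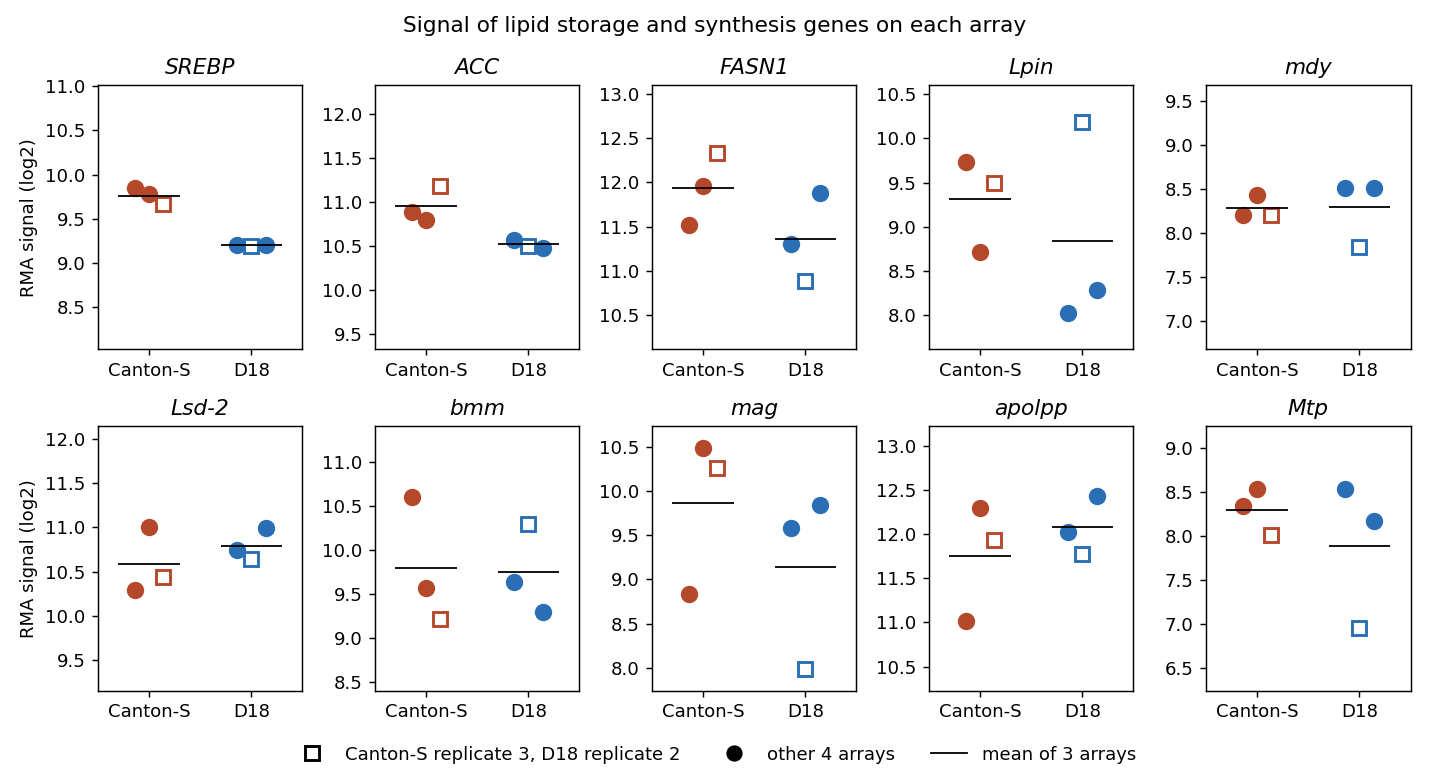
RMA signal (log2, vertical axis, each panel spanning 3 units) of the 10 genes on the 3 Canton-S arrays and the 3 D18 arrays. Open squares are Canton-S replicate 3 and D18 replicate 2, filled circles the other 4 arrays, and lines the mean of each strain. The strains separate in SREBP and ACC and overlap in the other 8 genes.

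SREBP (probe set 1628292_s_at), the transcription factor of lipid synthesis described above, had the smallest spread within strains of the 10 genes. Its log2 values were 9.84, 9.78 and 9.67 on Canton-S replicates 1 to 3 and 9.20, 9.19 and 9.20 on D18 replicates 1 to 3. All Canton-S arrays lay above all D18 arrays, whichever kind they were. Canton-S averaged 9.76 ± 0.09, against 9.20 ± 0.01 for D18 (SD over 3 arrays per strain), a 1.48-fold difference. The difference was 0.56 with a 95% interval of 0.13 to 0.99, at an unadjusted p = 0.0192 and an adjusted p = 0.869 in limma. An exact two-sided permutation test gave p = 0.1, the smallest that 3 arrays against 3 allow. Only 0.229% of all probe sets had a smaller residual SD than the 0.06 of SREBP, and limma drew that spread toward the level of the other probe sets. The difference was 0.48 within the testis-rich pair and 0.61 among the egg-rich arrays. With a block for the kind of array the unadjusted p was 0.00548 and the adjusted p 0.19 in limma. Left out in turn, Canton-S replicates 1 and 2 and D18 replicates 1 and 3 each took the unadjusted limma p above 0.05 (0.0674, 0.0684, 0.0535 and 0.0623), while the difference stayed between 0.52 and 0.61.

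ACC (probe set 1636923_a_at), which encodes acetyl-CoA carboxylase, the rate-limiting enzyme of fatty acid synthesis, was the other gene without overlap. Its values were 10.88, 10.80 and 11.18 in Canton-S and 10.57, 10.51 and 10.48 in D18. The D18 arrays lay within 0.1 of each other, and Canton-S replicate 3 was the highest of the 6. ACC was 1.35-fold higher in Canton-S, with a difference of 0.43, a 95% interval of -0.05 to 0.92 and an unadjusted p = 0.0717 in limma. FASN1 (probe set 1624549_at), the main fatty acid synthase of the fat body, followed with 11.51, 11.96 and 12.33 in Canton-S and 11.30, 10.88 and 11.88 in D18. D18 replicate 3 lay above Canton-S replicate 1, so the strains overlapped. The difference of 0.58 had a 95% interval of -0.32 to 1.48 (unadjusted p = 0.162 in limma). It amounted to 1.45 within the testis-rich pair and to 0.15 among the egg-rich arrays.

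**Figure D2:**
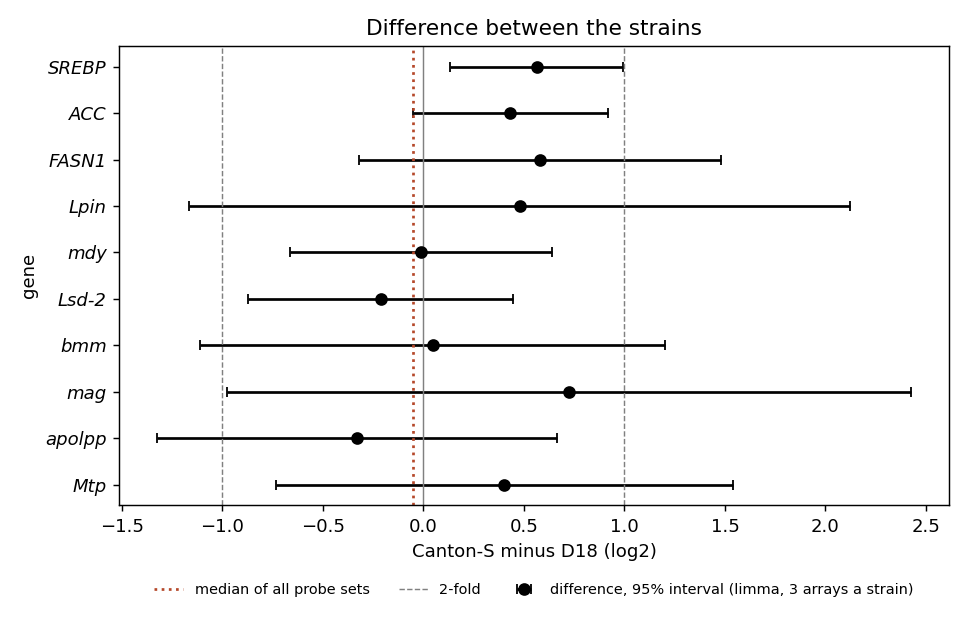
Difference between the strains, Canton-S minus D18 (log2, horizontal axis), for the 10 genes, with 95% intervals from limma on 3 arrays per strain. The dotted line is the median of all probe sets and the dashed lines mark 2-fold. Only the interval of SREBP, 0.13 to 0.99, leaves out 0, and the intervals of Lpin and mag are the widest.

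Genes of triglyceride assembly and of the droplet surface gave no common direction between the strains. Lpin (probe set 1639611_at) encodes lipin, the phosphatidate phosphatase that makes diacylglycerol, and the mammalian lipins also act in the nucleus as transcriptional coregulators. It gave 9.74, 8.71 and 9.49 in Canton-S and 8.02, 10.19 and 8.29 in D18. D18 replicate 2, of the testis-rich pair, was the highest of all arrays, while the other D18 arrays were the lowest. Over all arrays Lpin was 1.39-fold higher in Canton-S (difference 0.48, 95% interval -1.16 to 2.12, unadjusted p = 0.497 in limma). Among the egg-rich arrays alone the difference was 1.07 (unadjusted p = 0.0343, adjusted p = 0.426 in limma), and within the pair it was -0.70.

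The gene mdy (midway, probe set 1636579_s_at) encodes diacylglycerol acyltransferase 1, which makes triglyceride from diacylglycerol and is required in the female germ line. Its values were 8.20, 8.43 and 8.20 in Canton-S and 8.51, 7.85 and 8.51 in D18. The means of 8.28 ± 0.13 for Canton-S and 8.29 ± 0.38 for D18 (SD over 3 arrays per strain) differed by -0.011, with a 95% interval of -0.66 to 0.64. Lsd-2 (probe set 1637359_at) encodes a perilipin, a coat protein of lipid droplets that protects the stored fat from lipases. It gave 10.29, 11.01 and 10.44 in Canton-S and 10.74, 10.64 and 10.99 in D18. The difference was -0.21 with a 95% interval of -0.87 to 0.45 (unadjusted p = 0.455 in limma). For both genes the interval leaves out a change of 2-fold in either direction.

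The lipases bmm and mag varied more between arrays of 1 strain than between the strains. The gene bmm (brummer, probe set 1640754_at) encodes the fly homologue of adipose triglyceride lipase, which opens fat stores in fasting. Its values were 10.60, 9.57 and 9.21 in Canton-S and 9.64, 10.30 and 9.30 in D18. Canton-S replicate 1 and D18 replicate 2 were the highest, and they belong to different strains and different kinds of array. The strain difference was 0.046 with a 95% interval of -1.11 to 1.20, and it was -0.36 without Canton-S replicate 1.

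The gene mag (magro, probe set 1636583_at) encodes a lipase and cholesterol esterase secreted by the anterior gut. It had the widest range of the 10 genes, with 8.84, 10.49 and 10.27 in Canton-S and 9.58, 7.99 and 9.85 in D18. D18 replicate 2 was the lowest and Canton-S replicate 1 came next. The difference of 0.72, or 1.65-fold toward Canton-S, had a 95% interval of -0.98 to 2.42 (unadjusted p = 0.331 in limma), and rested on the pair: it was 2.28 within the pair and -0.051 among the egg-rich arrays. Midgut genes stood on the same side, with 10 of 11 measured genes of a midgut list, mag among them, higher in Canton-S at a median difference of 0.42 and none past the thresholds. Their summed signal was 43482 to 53438 on Canton-S arrays and 31831 to 35365 on D18 arrays, and none of the 11 was below the lower quartile of signals on every array. Array by array mag ran otherwise. The sum was highest on Canton-S replicate 1 (53438) and, among D18 arrays, on D18 replicate 2 (35365), the arrays with the lowest values of mag. The part of the gut content of the RNA in the values of mag was not tested, and in whole flies a smaller share of gut and less transcript per gut cell cannot be told apart.

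The genes of the lipoprotein path, apolpp and Mtp, differed in the array that stood lowest. The gene apolpp (probe set 1637843_at) encodes apolipophorin, the scaffold protein of lipophorin, the main lipid carrier of the haemolymph. Its values were 11.02, 12.30 and 11.93 in Canton-S and 12.03, 11.77 and 12.43 in D18. Canton-S replicate 1 was lowest by 0.75, and without it the strain difference was 0.037 in place of -0.33 (95% interval with all arrays -1.32 to 0.67). Mtp (probe set 1635744_at) encodes the microsomal triglyceride transfer protein, which loads lipid onto apolipophorin in the endoplasmic reticulum. It gave 8.34, 8.53 and 8.01 in Canton-S and 8.53, 6.96 and 8.18 in D18. D18 replicate 2 was lowest by more than 1 log2 unit, and without it the difference was -0.061 in place of 0.40 (95% interval with all arrays -0.73 to 1.54).

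Between the testis-rich pair and the egg-rich arrays, the 10 genes differed unequally in the strains. The kinds of array were recognised on these same arrays, so their differences are given as a description with no test. Each difference is the mean over the strains of the array of the pair minus the other arrays of its strain. Only Lpin was over 2-fold apart (1 of 10 genes, where 31.4% of all probe sets were), at 2.22-fold higher on the pair. The median size of the difference, with its sign left out, was 0.19 for the 10 genes and 0.57 for all probe sets, and opposite signs in the strains lower the first of these. Within Canton-S it was 0.30 for the 10 genes and 0.53 for all probe sets, and within D18 it was 0.69 for the 10 genes and 0.68 for all probe sets. Over 2-fold were 0 of 10 genes in Canton-S, where 29.1% of all probe sets were, and 3 of 10 in D18 (Lpin, mag and Mtp), where 36.5% were. Lower values on the pair were seen for 8 genes, and the median difference was -0.08 against -0.33 for all probe sets. The arrays of the pair lay outside the range of the egg-rich arrays for mdy and Mtp (2 of 10), both lower on the pair, where 64.6% of all probe sets showed no overlap and 47.3% were lower without overlap. For mdy the gap was under 0.01, between 8.201 and 8.204, and for Mtp it was 0.16. After a shift that gave every array the same median, the median difference of all probe sets went to -0.80. Under that shift Mtp and mag were over 2-fold lower on the pair, Lpin was 1.61-fold higher and the difference of ACC was -0.31 in place of 0.16.

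**Figure D3:**
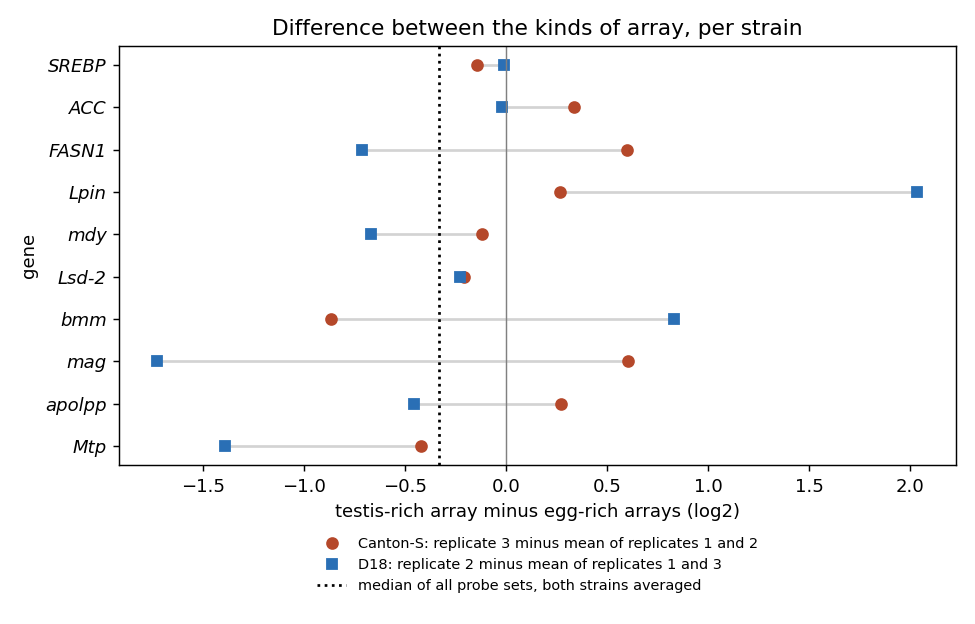
Difference between the kinds of array (log2, horizontal axis) for the 10 genes, as Canton-S replicate 3 minus the mean of the other Canton-S arrays (circles) and D18 replicate 2 minus the mean of the other D18 arrays (squares). The dotted line is the median of all probe sets. Both strains give nearly the same value for Lsd-2 and SREBP, while FASN1, bmm, mag, apolpp and ACC change sign between the strains.

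For Lpin, Mtp, mag, mdy, FASN1 and apolpp, D18 replicate 2 departed further from the other arrays of its strain than Canton-S replicate 3 did. Canton-S replicate 3 departed further for ACC (0.34 against -0.02), SREBP (-0.14 against -0.01) and, narrowly, bmm. For Lpin, Canton-S replicate 3 was 0.27 above the other Canton-S arrays, whereas D18 replicate 2 was 2.04 above the other D18 arrays. For Mtp the pair minus the other arrays was -0.42 in Canton-S and -1.39 in D18. For mag the pair minus the other arrays was 0.60 in Canton-S and -1.73 in D18, for bmm it was -0.87 in Canton-S and 0.83 in D18, and for FASN1 it was 0.60 in Canton-S and -0.71 in D18. Lsd-2 gave -0.21 in Canton-S and -0.23 in D18, which is the closest match of the 10. The lowest value of the 6 arrays fell on D18 replicate 2 for 5 genes (mag, FASN1, mdy, Mtp and SREBP), where 32.0% of all probe sets had their lowest value on that array.

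Whether the strain difference itself depended on the kind of array was asked with an interaction term in limma. With 1 array of the pair in each strain, this fit takes those arrays to vary as the others do. At an unadjusted p under 0.05 were 4 of the 10 genes (Lpin, FASN1, bmm and Mtp), where 5.37% of all probe sets were. None was at an adjusted p under 0.05, as 0.0213% of all probe sets were (lowest adjusted p = 0.91, for Lpin). The difference of the strain differences was -1.77 for Lpin and -1.70 for bmm, whose sign in the pair and among the egg-rich arrays was opposite. Opposite signs were seen for 5 of the 10 genes and 43.7% of all probe sets. The difference of differences was 1.31 for FASN1, 0.97 for Mtp and 2.33 for mag, the last at an unadjusted p = 0.0564. For SREBP it was -0.13 and for Lsd-2 0.020. Over 1 log2 unit were 4 of the 10 genes, and 9.74% of all probe sets. A difference between strains and a departure of the single array D18 replicate 2 cannot be told apart in this fit.

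Array by array, the extremes of several genes fell on the same arrays. The highest value of bmm was on Canton-S replicate 1 (10.60) and the next on D18 replicate 2 (10.30). The lowest values of mag were on D18 replicate 2 (7.99) and Canton-S replicate 1 (8.84), and the highest of Lpin on D18 replicate 2 (10.19) and Canton-S replicate 1 (9.74). The lowest of apolpp were on Canton-S replicate 1 (11.02) and D18 replicate 2 (11.77), the second close to Canton-S replicate 3 (11.93). This order was seen in the values, belongs to no group of the study and was not tested. Beside these values, products of the larval fat body varied strongly within both strains. Lsp2, a larval storage protein, gave 10.68, 7.98 and 4.78 in Canton-S and 10.24, 8.80 and 4.75 in D18. Fbp1, a receptor for storage proteins, gave 9.32, 3.87 and 3.12 in Canton-S and 8.60, 6.89 and 4.06 in D18. Fbp2, a dehydrogenase-like protein of the larval fat body, gave 10.42, 4.06 and 3.13 in Canton-S and 9.55, 7.97 and 3.88 in D18. These genes were named after their values were seen. The 3 transcripts were high on Canton-S replicate 1 and D18 replicates 1 and 2 and low on Canton-S replicate 3 and D18 replicate 3, so that D18 replicate 1 was high in them without a high bmm. The fat body list had 8 of 14 genes measured, bmm, FASN1 and apolpp among them, with a summed signal of 9733 to 19838 on Canton-S arrays and 9092 to 20743 on D18 arrays. By kind of array the sum was 9092 to 9733 on the testis-rich pair and 17345 to 20743 on the egg-rich arrays. The list also holds the yolk gene Yp1, at 4.69 and 3.56 on the pair and 12.80 to 13.38 on the egg-rich arrays. Since the sum adds linear values of bmm, FASN1, apolpp and Yp1, it does not measure fat body apart from these genes. The part of larval fat body in the lipid values was not tested.

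**Figure D4:**
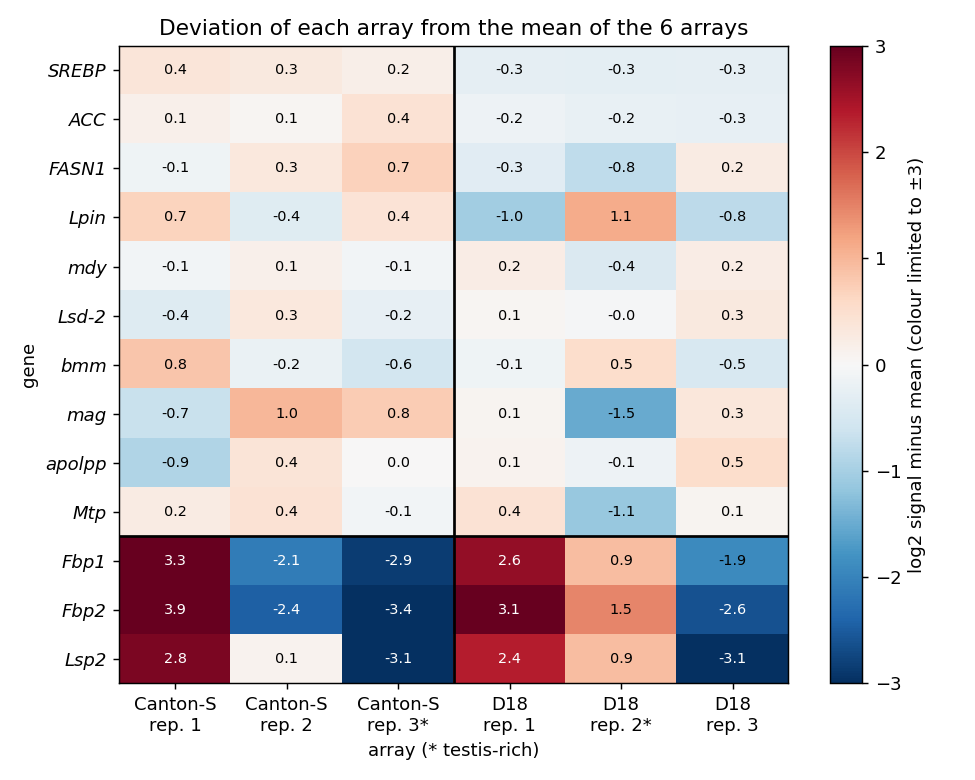
Log2 signal on each array minus the mean of that gene over the 6 arrays, for the 10 genes and, under the line, the larval fat body genes Fbp1, Fbp2 and Lsp2. Columns are arrays, Canton-S left of D18, with the testis-rich pair starred, and colours stop at 3. Lpin and bmm are raised and mag lowered on Canton-S replicate 1 and D18 replicate 2. The gene apolpp is lowered on Canton-S replicate 1 and only slightly on D18 replicate 2. The larval genes are raised on Canton-S replicate 1 and D18 replicates 1 and 2.

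Another 78 genes of lipid metabolism were measured, in 7 groups, and 1 of them passed the thresholds, where 1.27% of all probe sets did. This was CG1946 of the diacylglycerol acyltransferase 2 family, with 6.87, 6.94 and 7.26 in Canton-S and 5.69, 4.83 and 5.75 in D18. The 3.03-fold difference toward Canton-S had an unadjusted p = 0.00307 and an adjusted p = 0.482 in limma. The strains did not overlap, and the difference was 1.19 among the egg-rich arrays. It did not pass with the replicate block, quantile normalization or a common median (unadjusted p = 0.012, 0.0202 and 0.0268 in limma), nor without Canton-S replicate 1, 2 or 3 (0.0102, 0.0117 and 0.0123). None of the 78 reached an adjusted p under 0.05. Without overlap of the strains, 9 stood higher in Canton-S and 2 in D18, which is 11 of 78 where 8.01% of all probe sets showed no overlap. The 78 leave out genes listed only for oenocytes. Of these, the fatty acid elongase Elovl7 gave 2.93, 2.84 and 2.46 in Canton-S and 9.05, 9.32 and 8.90 in D18. Its adjusted p was 0.00742 in limma. The Canton-S values lay below the lower quartiles of the arrays (2.94 to 3.07), so no fold is given. By qRT-PCR the paper found equal levels in both strains for a gene it names ELOVL.

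By group, 1 of 17 genes of triglyceride synthesis and droplet coat passed, and none of 18 of lipolysis, 13 of fatty acid synthesis, 4 of SREBP processing, 8 of lipoprotein transport, 13 of fatty acid oxidation and 15 of hormonal and transcriptional control. The groups hold the 10 genes as well. The median strain difference was 0.78 for lipolysis, with 16 of 18 genes higher in Canton-S, and 0.38 for fatty acid synthesis, with 9 of 13 higher in Canton-S. It was 0.28 for lipoprotein transport, 0.25 for SREBP processing, 0.17 for triglyceride synthesis and droplet coat, 0.07 for hormonal and transcriptional control and -0.03 for fatty acid oxidation, beside -0.05 for all probe sets. The lipolysis group includes lipases of the gut such as mag. The midgut list, which holds mag as well, also stood higher in Canton-S. The part of gut RNA in the lipolysis median was not tested.

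Between the kinds of array, 14 of the 78 genes were over 2-fold apart without overlap, 12 of them lower and 2 higher on the testis-rich pair, where 30.0% of all probe sets met both conditions. Jabba, a droplet protein that anchors histones in the early embryo, gave 7.97 and 7.61 on the pair and 10.37 to 11.58 on the egg-rich arrays, 9.43-fold lower on the pair. Its second probe set, at 1.61-fold lower, overlapped. Agpat1, an acyltransferase upstream of lipin, was 6.14-fold lower on the pair. Its values there, 3.42 and 3.51, were near the lower quartiles of the arrays, so this fold rests partly on background. Seipin, which shapes lipid droplets, was 2.63-fold lower on the pair. S1P, the first protease that cleaves SREBP, was 2.95-fold lower on the pair, and SREBP itself differed by -0.076. In fatty acid synthesis, Fad2 (desatF), the desaturase of female pheromones, gave 2.91 and 2.69 on the pair and 9.65 to 10.75 on the egg-rich arrays. The values on the pair lay below the lower quartiles of the arrays (2.94 to 3.07), so no fold is given. The acyl-CoA synthetase bgm was 2.49-fold lower on the pair and the fatty acid synthase FASN2 2.61-fold higher.

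Among lipases, CG18301 was higher on the pair, at 8.40 and 5.56 against 2.74 to 3.42 on the egg-rich arrays, which is about the lower quartile of the arrays, and no fold is given. CG17192 was 7.98-fold lower, at 9.09 and 5.74 on the pair against 9.91 to 11.20 on the egg-rich arrays, so D18 replicate 2 made most of it. CG6296 was 6.61-fold lower, at 4.85 and 3.27 on the pair against 5.41 to 7.95. Its value on D18 replicate 2 was near the lower quartiles of the arrays, so this fold rests partly on background. Acox57D-d, an acyl-CoA oxidase of peroxisomes, was 4.28-fold lower and CG4860, of fatty acid oxidation, 2.22-fold lower. Of the genes of control, the nuclear receptor Hr96, which regulates mag, was 2.25-fold lower and the kinase Sik3 2.12-fold lower, with a second probe set of Sik3 1.58-fold lower. The yolk, eggshell and ovary lists fell together with these 12 genes on the pair, and the part of ovary RNA in them was not tested.

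**Figure D5:**
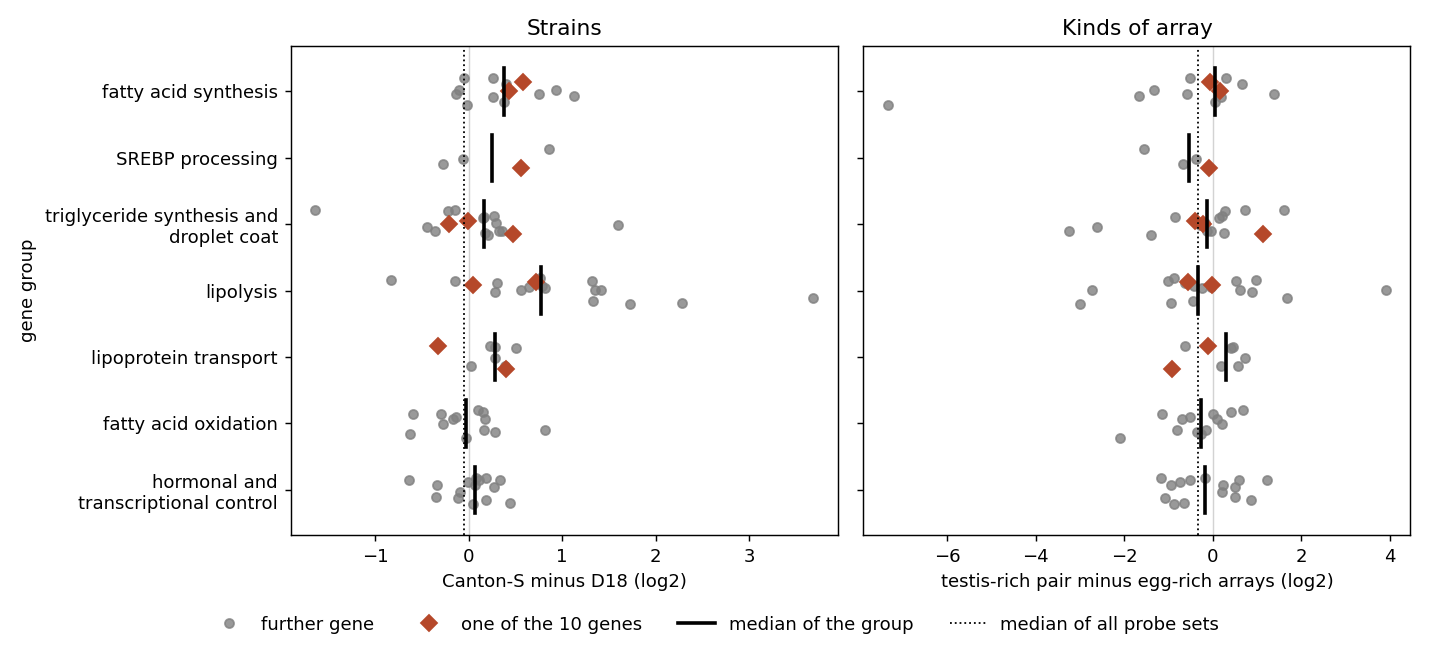
Differences of lipid genes by group (log2, horizontal axes), Canton-S minus D18 on the left and testis-rich pair minus egg-rich arrays on the right. Diamonds are the 10 genes, circles the further genes, bars the median of each group and dotted lines the median of all probe sets. On the left, lipolysis has the highest median, 0.78, and on the right the 10 genes lie between -0.91 and 1.15 while Fad2, at background on the pair, lies farthest to the left.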

How the data were processed

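The authors scanned 1 array per biological repeat and processed the scans in Transcriptome Analysis Console with the RMA algorithm at default parameters, and the deposited values are log2 signals per probe set. No further normalization was applied. The lowest value was 0.98 and the highest 14.07, and array medians lay between 4.89 and 5.55. The number of arrays limits the precision. After 183 control probe sets were left out, 18769 were tested, of which 13647 name 1 gene, 402 several and 4720 none in the annotation of the array. Symbols were updated through the Release 6 gene table, which matched 13544 of them.

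The strains were compared by lmFit and eBayes of limma 3.58.1 under R 4.3.3, with strain as the only factor and Benjamini-Hochberg adjustment over all probe sets. The fit was tested on simulated data. Gene groups take the brightest probe set per gene. The genes named are the 10 genes, up to 4 genes per group past the thresholds between strains, and up to 4 per group with the widest difference between kinds of array among those over 2-fold without overlap. The 10 genes and the lists were chosen with earlier results of these data known. Summed signals add linear values over a list.

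Equal replicate numbers were read as the same repeat, since the RNA of both strains was extracted together in each repeat. Deviations from the strain means correlated at 0.777, -0.93 and -0.861 for numbers 1 to 3, but the kinds of array cross the numbers and weigh on these signs, so the pairing was left undecided and the replicate block kept as an alternative. Alternatives were a replicate block, a block for the kind of array, a fit without the pair, quantile normalization, a common median, the dimmest 40% left out, an intensity trend, no moderation, each array left out, and 1.5-fold. Labels do not say whether arrays hold separate cultures beyond the repeat. Python 3.11.15, pandas 2.3.3 and matplotlib 3.10.9 served for tables and plots. qRT-PCR and enrichment were not analysed here.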

Additional observations from a re-analysis of the deposited data

How the results depend on the processing

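Between the strains, 0 of the 10 genes passed the thresholds under any alternative run. The count with an unadjusted limma p below 0.05, which was 1 over all arrays, was 0 with the replicate block, with a common median and with the dimmest probe sets left out, and 2 with the block for the kind of array (SREBP and ACC), without the pair (SREBP and Lpin) and without moderation, and it ran from 0 to 2 when 1 array was left out. Of 140 differences under an alternative, 128 kept their sign and 12 did not. These were bmm, at -0.041 with quantile normalization and -0.12 with a common median, and -0.36 to 0.34 with 1 array left out, mag at -0.051 without the pair, and, with 1 array left out, mdy (-0.23 to 0.10), apolpp (-0.60 to 0.037) and Mtp (-0.061 to 0.72). SREBP stayed between 0.40 and 0.61, and its unadjusted p was 0.117 with the replicate block and 0.319 with a common median, which moved the median of all probe sets to -0.22. The count of genes over 2-fold between kinds of array, 1, was 2 with a common median and 2 at 1.5-fold, and 0 to 3 with 1 array left out. It was 0 without Canton-S replicate 2 or D18 replicate 2 and 3 without Canton-S replicate 3, which leaves D18 alone. The further genes past the thresholds, 1, were 0 with the replicate block, quantile normalization and a common median, 2 with the block for the kind of array (CG1946 and CG6295) and 3 without the pair (CG1946, CG6283 and Acox3). With the replicate block, SREBP, FASN3 (0.0602) and Acox3 (0.0889) had an unadjusted p above 0.05 and CG31089 (0.02) below it.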

Other observations

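The following genes were named after their values were seen, and no explanation was tested. The lipase CG6283, of a cluster of gut lipases, gave 11.95, 11.20 and 11.07 in Canton-S and 7.76, 10.31 and 5.11 in D18. The strains did not overlap, and the 12.8-fold difference toward Canton-S had an unadjusted p = 0.0333 and did not pass the adjustment in limma. Among the egg-rich arrays alone the log2 difference was 5.14, while the testis-rich pair lay close together, at 11.07 in Canton-S and 10.31 in D18. CG6277, of the same family, was measured only by a probe set shared with another gene. Lip3 and CG31089 were highest on Canton-S replicate 1, at 8.09 and 9.57, and lowest on D18 replicate 3, at 2.97 and 3.41. Both lowest values were at or near the lower quartiles of the arrays. For CG31089, the unadjusted p in limma was 0.12 without and 0.02 with the replicate block. FASN3, a fatty acid synthase of oenocytes, was 1.91-fold higher in Canton-S without overlap, at an unadjusted p = 0.0279 in limma, and 0.0602 with the replicate block.

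Dgat2 was higher in D18 without overlap, with 3.78, 4.05 and 4.37 in Canton-S and 4.98, 7.55 and 4.57 in D18, so that D18 replicate 2 made most of the 3.11-fold difference. Its Canton-S values lay below every array median (4.89 to 5.55). CG1946 of the same enzyme family ran the other way. Lsd-1, the second perilipin, gave 6.86, 9.08 and 9.59 in Canton-S and 8.34, 8.55 and 9.10 in D18, lowest on Canton-S replicate 1 as apolpp and Lsd-2 were. The gene tobi, an alpha-glucosidase of the fat body list known as a target of insulin-like and adipokinetic signals, gave 4.05, 3.44 and 2.84 in Canton-S and 8.44, 10.66 and 6.47 in D18. Canton-S replicate 3 lay below the lower quartiles of the arrays, so the measured 33.9-fold difference toward D18 rests partly on background. It passed the thresholds (unadjusted p = 0.00416 in limma) and had an adjusted p of 0.554.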
